A study of Caenorhabditis elegans with 8 samples.

Results

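The genes described here encode proteins of the large subunit of the cytosolic ribosome in Caenorhabditis elegans. They were chosen by sequence name as the rpl family, and numbered 43, against 19983 protein-coding genes in the gene table and 8922 genes listed in the deposited call table. The sequence names of all 43 were found in the gene table, and 41 were listed in the call table. Of the 43, 42 carry the symbol of a ribosomal protein in the gene table. The exception is C03D6.8, for which the table gives rsl-24D1. In yeast and human the protein of that name is an assembly factor that occupies the site of the rpl-24 protein before the subunit is finished. C03D6.8 was kept under the rule and is named where it matters. The genes also known as rpl-25.1 (F55D10.2) and rpl-25.2 (F52B5.6) are rpl-23A.1 and rpl-23A.2 in the table, and rpl-24.1 (D1007.12) is rpl-24.

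The large subunit joins amino acids in its peptidyl transferase centre and releases the growing chain through an exit tunnel. Its proteins are needed in near-equal amounts, and in most animals each is made from a single gene or a small number of copies. Their genes are transcribed by RNA polymerase II and are among the most heavily transcribed in growing cells, including those of the embryo. In many animals introns of these genes also carry small nucleolar RNAs (snoRNAs), which guide the modification of ribosomal RNA.

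The study asked where RNA polymerase II lies in embryos after RNAi of sig-7 and in control embryos. SIG-7 is a cyclophilin of the nucleus that also carries an RNA-binding domain. Chromatin from embryos of strain KW2309 was precipitated by way of AMA-1, the largest polymerase subunit, and all embryos were fixed with 2% formaldehyde for 22 min. The sig-7(RNAi) embryos and the control embryos, which received the vector L4440, each gave 2 AMA-1 ChIP libraries and 2 input libraries. Embryos of 1 to 350 cells were mixed in every library, so fewer cells with polymerase at a gene and less polymerase per cell cannot be told apart. The labels do not say whether the 2 libraries came from separate cultures.

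The deposited value is a single call per gene and condition. A gene is called (1) where peaks of both libraries of a condition overlap it by at least 250 bp or 45% of its length, and a call of 0 means that at most 1 library had such a peak. A gene missing from the table is taken here as called in neither condition, since 0 of the 8922 listed genes had a 0 in both. The calls hold no peak height, read count or value per library. Depth and replicate error are therefore unknown, no test over samples was possible, and every comparison below is a description of calls. ama-1 itself was called in both conditions and sig-7 in sig-7(RNAi) embryos only, which says nothing of the level of its transcript.

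Polymerase was called at most large-subunit genes in either condition. In sig-7(RNAi) embryos 38 of the 43 were called (88.4%), against a background of 23.9% of all protein-coding genes. In control embryos 37 were called (86.0%), against a background of 22.8%. The number called thus differed by 1 gene between the conditions. Both conditions shared 34 of the 43 genes (79.1%, background 16.8%). These made up 89.5% of the members called in sig-7(RNAi) embryos and 91.9% of those called in control embryos. Over all protein-coding genes the shared share was 70.5% of the sig-7(RNAi) calls and 73.6% of the control calls. By the call rule a short gene is called by a smaller overlap. Gene lengths of the members and of the background were not compared, so these shares need not reflect polymerase alone.

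The members that were not shared fell on either side in similar numbers. In sig-7(RNAi) embryos only, 4 members were called (9.3%, background 7.05%), namely rpl-9, rpl-14, rpl-23A.2 and rpl-34. In control embryos only, 3 were called (6.98%, background 6.03%), namely rpl-5, rpl-11.2 and rpl-35A. Both shares lie near their backgrounds, so neither is a result about these genes. The other 2, rpl-21 and rpl-28, were called in neither condition (4.65%, background 70.1%).

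**Figure D1:**
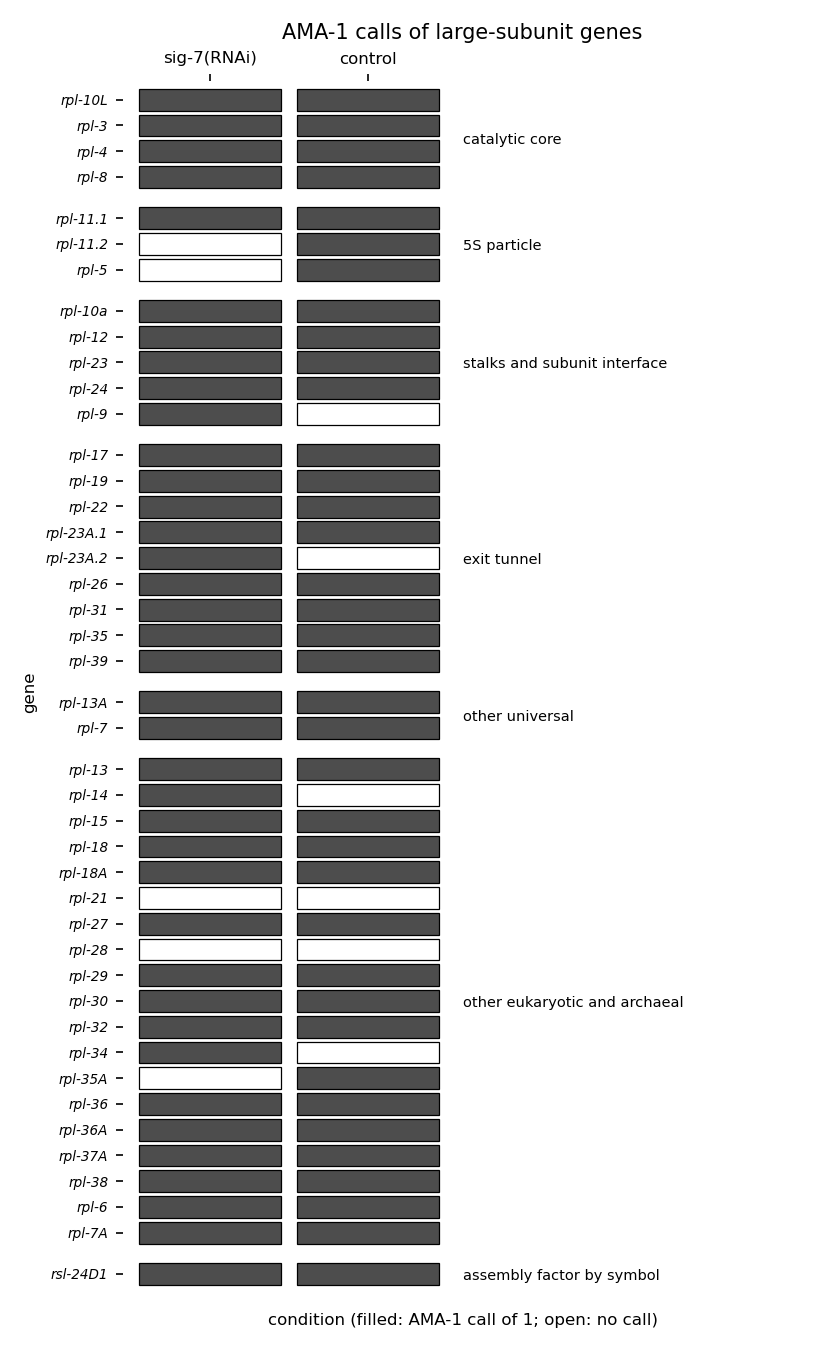
AMA-1 calls of the 43 large-subunit genes (rows, grouped by the place of the protein in the subunit) in sig-7(RNAi) embryos (left column) and control embryos (right column). A filled box is a call of 1 and an open box no call, and each box merges 2 libraries. 34 rows are filled in both columns, 4 in the sig-7(RNAi) column only, 3 in the control column only and 2 in neither.

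The genes of the catalytic core were called throughout. These were rpl-3 (F13B10.2) and rpl-8 (B0250.1), whose proteins reach towards the peptidyl transferase centre, rpl-4 (B0041.4), whose protein lines part of the exit tunnel, and rpl-10L (F10B5.1), whose protein lies by the tRNAs. All 4 had a call of 1 in sig-7(RNAi) embryos and a call of 1 in control embryos. Since 79.1% of all 43 members were called in both (background 16.8%), this count says nothing particular to the core. The counts of the groups that follow are to be read beside the same shares.

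The genes of the proteins that bind 5S ribosomal RNA were called less evenly. RPL-5 and RPL-11 form a particle with this RNA before it is built into the subunit. Of their 3 genes, rpl-5 (F54C9.5) and rpl-11.2 (F07D10.1) had a call of 0 in sig-7(RNAi) embryos and a call of 1 in control embryos. The other rpl-11 copy, rpl-11.1 (T22F3.4), was called in both. This group therefore held 2 of the 3 control-only calls among the 43 genes. Over all 43 that share was 6.98%, near the background of 6.03%, and rpl-11.2 is a copy whose call is uncertain. The group was set apart after the calls were seen, and grouping the members by place in the subunit was not planned. The counts of this and the other groups are therefore a description.

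Proteins of the stalks and the interface with the small subunit came from 5 genes. Against 79.1% of all 43 members, 4 of these were called in both conditions. They were rpl-10a (Y71F9AL.13), whose protein forms the stalk by which spent tRNAs leave, rpl-12 (JC8.3), at the base of the stalk that recruits translation factors, rpl-23 (B0336.10), whose protein is bound by the anti-association factor eIF6, and rpl-24 (D1007.12), whose protein bridges the subunits. The fifth, rpl-9 (R13A5.8), whose protein lies near the factor-binding site, was called in sig-7(RNAi) embryos and not in control embryos.

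Beside 79.1% of all 43 members, 8 of 9 genes around the exit tunnel were called in both conditions. These were rpl-17, rpl-19, rpl-22, rpl-23A.1, rpl-26, rpl-31, rpl-35 and rpl-39, whose proteins surround the mouth of the tunnel or line it. RPL-23A and RPL-35 lie where the signal recognition particle docks on ribosomes. The exception was the second copy rpl-23A.2 (F52B5.6), with a call in sig-7(RNAi) embryos only.

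Of the 2 remaining proteins found in all domains of life, rpl-7 (F53G12.10) and rpl-13A (M01F1.2), both genes were called in both conditions. A further 19 genes encode proteins shared by eukaryotes and, in many cases, archaea. Of these, 14 were called in both conditions, 2 in sig-7(RNAi) embryos only (rpl-14, C04F12.4, and rpl-34, C42C1.14), 1 in control embryos only (rpl-35A, F10E7.7) and 2 in neither (rpl-21, C14B9.7, and rpl-28, R11D1.8). The assembly factor gene rsl-24D1 was called in both.

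Of the 3 pairs named in the rule, 2 differed in their calls, and in the third 1 gene is not a copy by its symbol. For rpl-11, the copy rpl-11.1 was called in sig-7(RNAi) and control embryos, and rpl-11.2 in control embryos only. For rpl-23A, the copy rpl-23A.1 was called in sig-7(RNAi) and control embryos, and rpl-23A.2 in sig-7(RNAi) embryos only. Each pair thus kept at least 1 called copy in either condition. The third pair, rpl-24 and rsl-24D1, was called in both conditions at both genes. By its symbol rsl-24D1 is an assembly factor gene and not a second copy of rpl-24. Copies can share reads, and how the authors treated reads that map to several places is not given in the sources used here, so the calls of single copies are uncertain.

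No 2 members called in both conditions lay in the same stretch. A stretch is here a run of consecutive protein-coding genes with the same call, in the gene order of each chromosome. The 34 shared members lay in 34 separate stretches of genes called in both, of 1 to 7 genes with a median of 3. The same stretches over all protein-coding genes called in both ran from 1 to 12 genes, with a median of 3 also.

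Nearly every shared member had a shared neighbour. Of the 34, 33 had at least 1 adjacent protein-coding gene called in both conditions (97.1%), against 82.0% of the 3360 protein-coding genes called in both. On both sides this held for 16 of the 34 (47.1%), against 27.9%. The only shared member without a shared neighbour was rpl-23A.1, beside glit-1 (not called) and F55D10.4 (control only). A broad peak can call adjacent genes together, and without coordinates of peaks it cannot be told which gene of a stretch holds the polymerase. In the gene table rpl-8, rpl-32, rpl-39 and rsl-24D1 overlap a shared neighbour, which for rpl-8 and rsl-24D1 is the only one. Their calls and those of the overlapping neighbour are not separate measurements.

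Some of the 49 adjacent positions called in both conditions are named here as examples, picked after their calls were seen. rpl-24 lay beside rps-10 and rpl-36 beside rps-14, both genes of small-subunit proteins. rpl-39 lay beside fau-1, which encodes a small-subunit protein as a ubiquitin-like fusion. rpl-30 lay beside pab-1, a poly(A)-binding protein gene, and rpl-37A between bop-1, a gene for large-subunit assembly, and xrn-2, an exonuclease gene.

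Where the neighbour of a shared member was called in a single condition, that condition was sig-7(RNAi) in 7 of 9 cases. The 7 neighbours called in sig-7(RNAi) embryos only were aps-3 beside rpl-17, tppp-1 beside rpl-13, cpf-1 beside rpl-26, hpo-28 beside rpl-23, set-21 beside rpl-7A, lin-54 beside rpl-12 and pygl-1 beside rpl-11.1. The 2 called in control embryos only were dpy-31 beside rpl-6 and F55D10.4 beside rpl-23A.1. Of the 68 positions adjacent to shared members, these were 10.3% and 2.94%, against 10.6% and 4.91% beside all shared protein-coding genes. The lean is therefore near that of shared genes as a whole. A further 49 positions were called in both (72.1%, against 55% beside all shared genes) and 10 in neither (14.7%, against 29.6%). The 10 lay beside rpl-8, rpl-18, rpl-18A, rpl-19, rpl-22, rpl-23A.1, rpl-29, rpl-31, rpl-35 and rsl-24D1.

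The stretch of called genes around a shared member was often longer in sig-7(RNAi) embryos. Counting the consecutive protein-coding genes called in each condition, whatever the other, it was longer in sig-7(RNAi) embryos for 14 of the 34, longer in control embryos for 3 and equal for 17. Around rpl-17 and rpl-7A it held 8 genes in sig-7(RNAi) embryos and 2 in control embryos. Around rpl-23 it held 9 genes in sig-7(RNAi) embryos and 3 in control embryos, and around rpl-3 and rpl-36 it held 10 and 5. In the opposite direction, the stretch around rpl-10L held 4 genes in sig-7(RNAi) embryos and 6 in control embryos. Over the 34, the median was 4 genes in sig-7(RNAi) embryos and 3 in control embryos.

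All protein-coding genes called in both conditions gave like values. Their stretch was longer in sig-7(RNAi) embryos for 39.5%, against 41.2% of the large-subunit genes, and longer in control embryos for 14%, against 8.82%. Their medians were 4 genes in sig-7(RNAi) embryos and 3 in control embryos. The values of the large-subunit genes thus lie near those of all shared genes.

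**Figure D2:**
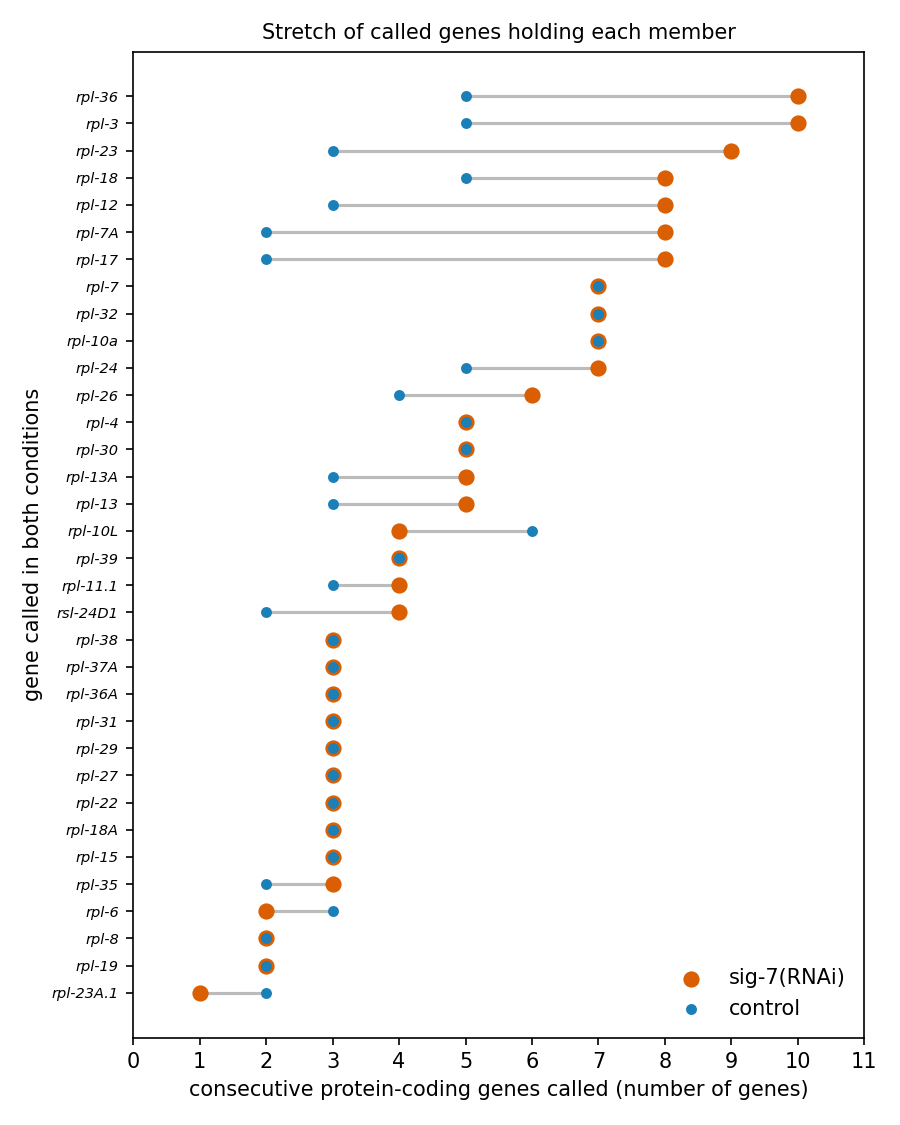
Number of consecutive protein-coding genes called (x axis) in the stretch that holds each of the 34 large-subunit genes called in both conditions (y axis). Large points are sig-7(RNAi) embryos and small points control embryos, joined by a line, each from calls that merge 2 libraries. The sig-7(RNAi) point lies farther right for 14 genes, the control point for 3, and they coincide for 17.

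Of the 9 members not shared, 6 had an adjacent protein-coding gene called in both conditions. These were 3 of the 4 called in sig-7(RNAi) embryos only, against 609 of all 1409 protein-coding genes with that call. They were also 2 of the 3 called in control embryos only, against 304 of 1204, and 1 of the 2 called in neither, against 1838 of 14010. With so few members these counts are a description and say nothing particular to them. Neighbours here and below are taken in the order of protein-coding genes. Of the 4 called in sig-7(RNAi) embryos only, rpl-9 lay beside lpd-7, rpl-14 beside nssp-7 and rpl-34 beside C42C1.3, all called in both. The protein-coding gene on the other side of each was not called. Counting genes of any kind, rpl-9 had 0 adjacent genes called in both. By that count rpl-9 and rpl-34 each had 1 adjacent gene called in sig-7(RNAi) embryos only. lpd-7 encodes a relative of pescadillo, itself a factor of large-subunit assembly. The gene table has rpl-14 and rpl-34 overlapping the shared neighbour, so polymerase on the member and on that neighbour cannot be told apart from these calls. The fourth, rpl-23A.2, lay beside cep-1, the p53 relative, which was also called in sig-7(RNAi) embryos only, and formed with it a stretch of 2 genes.

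Of the 3 members called in control embryos only, rpl-5 lay beside bcs-1, called in both, and the collagen gene col-38, not called. rpl-35A lay between farl-11, called in both, and F10E7.9, called in control embryos only. It stood in a stretch of 7 genes called in control embryos. rpl-11.2 lay in a stretch of 3 control-only genes, between vha-15, which encodes a subunit of the vacuolar proton pump, and AH9.1. It was the only control-only member with no adjacent protein-coding gene called in sig-7(RNAi) embryos.

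The members called in neither condition had contrasting neighbours. rpl-21 lay between gei-8, called in both, and C14B9.10, not called. rpl-28 overlapped R11D1.13, not called, and lay on the other side beside mrpl-49, a mitochondrial ribosomal protein gene called in sig-7(RNAi) embryos only. rpl-28 belonged to a stretch of 9 uncalled genes. By the call rule, a gene with a peak in a single library, or with a smaller overlap, is also not called.

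**Figure D3:**
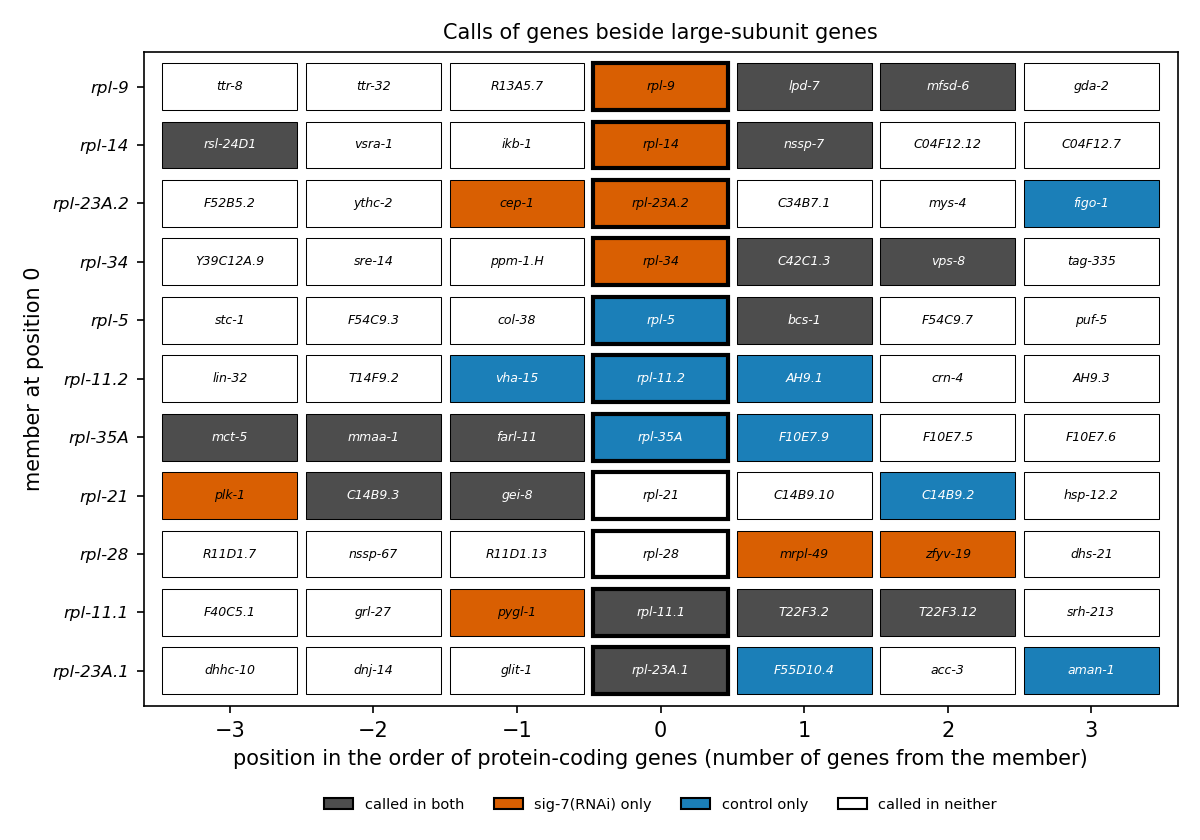
Calls of the 3 protein-coding genes on either side (x axis, number of genes from the member) of the 9 large-subunit genes not called in both conditions, and of the partner copies rpl-11.1 and rpl-23A.1 (y axis, heavy outline). Dark boxes were called in both conditions, orange in sig-7(RNAi) embryos only, blue in control embryos only, and white in neither. rpl-9, rpl-14, rpl-34, rpl-5, rpl-35A and rpl-21 each adjoin a dark box, and rpl-11.2 stands among blue ones.

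Genes of snoRNAs that overlap the ribosomal genes mostly carried the call of the gene they overlap. By the positions in the gene table, 8 of the 43 members overlapped at least 1 snoRNA gene. They were rpl-4, rpl-6, rpl-7, rpl-7A, rpl-8, rpl-15, rpl-24 and rpl-26. Nesting and strand were not checked. All 8 were called in both conditions, and none of the 9 members outside the shared set overlapped a snoRNA gene. Since 79.1% of all 43 members were called in both (background 16.8%), these counts say nothing particular to the 8. Of the 12 snoRNA genes, 11 were called in both conditions, against 27.7% of all 346 snoRNA genes. rpl-6 overlapped 3 of the 12, and rpl-7A and rpl-15 overlapped 2 each. Since the snoRNA genes overlap the members, their calls are no separate measurement. The exception was B0250.19, which overlaps rpl-8 and was called in neither condition although rpl-8 was called in both.

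Further genes of the large subunit, or with an rpl symbol, lie outside the 43. The stalk proteins rplp-0, rplp-1, rplp-2.1 and rplp-2.2 and the ubiquitin fusion gene ubq-2 were called in both conditions, as 5 of 5. Of 6 other genes with an rpl symbol, rpl-27A, rpl-37.1, rpl-41.1 and rpl-41.2 were called in both, and rpl-37.2 and rpl-42 in neither. The share called in both was thus 66.7% of these 6, and 33.3% were called in neither, against 79.1% and 4.65% of the 43. rpl-37 is thus another pair of which 1 copy was called. With these added and rsl-24D1 left out, 42 of 53 genes were called in both conditions, 4 in sig-7(RNAi) embryos only, 3 in control embryos only and 4 in neither.

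Small-subunit genes were mostly called in both conditions. Of 32 genes, 30 were called in both conditions (93.8%, against 79.1% of the large-subunit genes), 0 in sig-7(RNAi) embryos only, 2 in control embryos only and 0 in neither. The 2 were rps-23, whose protein lies in the decoding centre, and rps-27A, which is made as a ubiquitin fusion. The large-subunit genes had 4 and 3 single-condition calls among 43 (9.3% and 6.98%). Over all protein-coding genes 7.05% were called in sig-7(RNAi) embryos only and 6.03% in control embryos only. The control-only share of the small-subunit genes (6.25%) lies near that background. With calls that merge the replicates, the difference between the subunits could not be tested.

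Genes of the mitochondrial ribosome, which translates the few proteins encoded in mitochondria, were called far less often than cytosolic ones. They were still called more often than protein-coding genes as a whole. Of 42 mitochondrial large-subunit genes, 15 were called in both conditions (35.7%, background 16.8%) and 15 in neither (35.7%, background 70.1%). In sig-7(RNAi) embryos only, 9 were called (21.4%, background 7.05%), and in control embryos only, 3 (7.14%, background 6.03%). mrpl-10, mrpl-12, mrpl-13 and mrpl-15 were among those called in both. Of 29 mitochondrial small-subunit genes, 12 were called in both, 2 in sig-7(RNAi) embryos only (mrps-7 and mrps-18C), 2 in control embryos only (mrps-10 and mrps-18B) and 13 in neither. The cytosolic large-subunit genes were shared in 79.1% of cases and the mitochondrial ones in 35.7%.

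All 15 listed genes of ribosome assembly and the nucleolus that the gene table holds were called in at least 1 condition. Of all protein-coding genes, 70.1% were called in neither. In both conditions 8 were called (53.3%, background 16.8%), among them dao-5, fib-1, which encodes the RNA methyltransferase fibrillarin, lpd-7 and nog-1. In sig-7(RNAi) embryos only, 5 were called (33.3%, background 7.05%). They were eif-6, whose product keeps the subunits apart, nst-1, the gene of nucleostemin, and lpd-6, nol-58 and rbd-1. In control embryos only, 2 were called (13.3%, background 6.03%), grwd-1 and ncl-1, a repressor of ribosome production. With so few genes these shares are a description and were not tested.

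**Figure D4:**
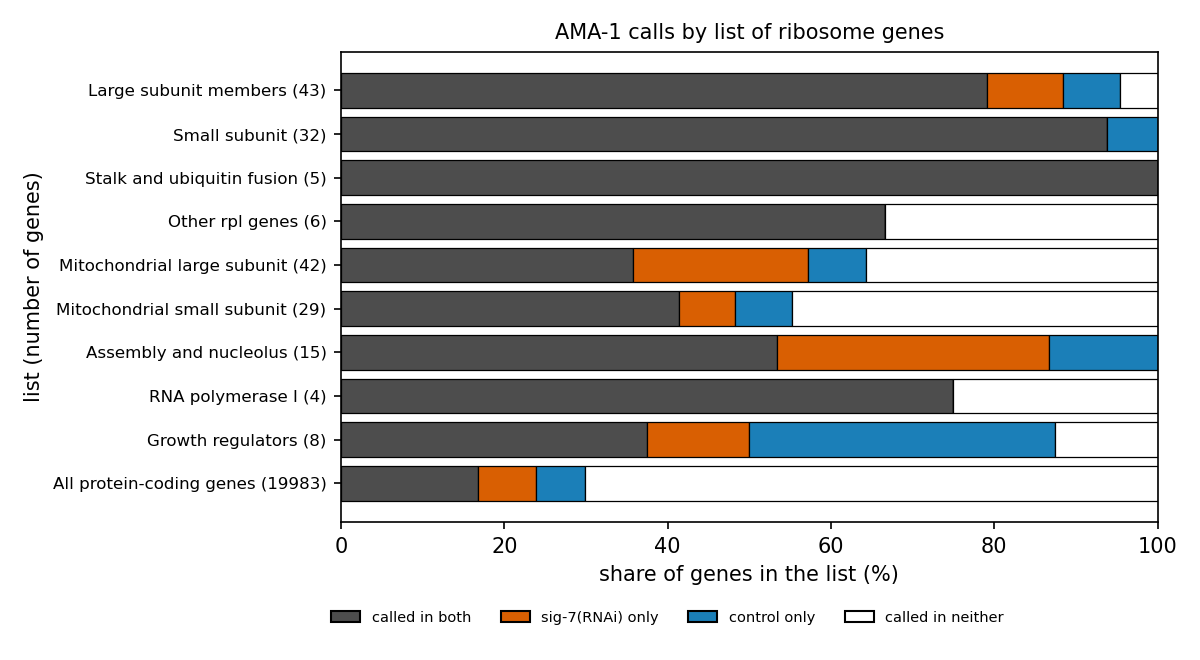
Share of genes (x axis, %) called in both conditions, in sig-7(RNAi) embryos only, in control embryos only and in neither, for the large-subunit genes, 8 other lists and all protein-coding genes (y axis, number of genes in brackets). The part called in both is 79.1% for the large-subunit genes, 93.8% for small-subunit genes, 35.7% for mitochondrial large-subunit genes and 16.8% for all protein-coding genes.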

How the data were processed

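The deposited file gives for each gene and condition a category of 0 or 1, made by the authors from 2 AMA-1 ChIP libraries. MACS2 made broad peaks (cutoff 0.01), per the file headers, and a gene needed the overlap given above in both libraries. The submitters' processing notes name Bowtie 1.0.1, MACS2 and build ce10. Which annotation was used, and whether inputs entered peak calling, is not given in the sources used here. These rules favour calls of genes near a broad peak, and call short genes by a smaller overlap.

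Of 8922 sequence names, 8824 matched a RefSeq locus tag of assembly WBcel235 (case ignored). The calls are on another build, so this gene table served only for names, kinds of gene, overlaps and gene order, and no coordinates are printed. Stretches and neighbours were counted in Python 3.11.15 with pandas 2.3.3, and the counting was tested on simulated calls. The members and lists were chosen with earlier results of these data known. Symbols in the lists that the gene table does not hold numbered 6. Of these, ubl-1 and the 3 rla symbols were replaced by rps-27A and the rplp symbols, and rpsa-1 and fau-1 were added. The symbols nmd-3 and rrbs-1 of the assembly list were not replaced, so their calls were not read. Named were all members outside the shared set, the copy pairs, shared members with a neighbour of another call, and of the lists single-condition genes (up to 10) and up to 4 shared ones. The tests foreseen for counts or signal do not apply to calls, and no p-value was computed. Protein lengths, promoter motifs and sequences were not analysed here.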

Additional observations from a re-analysis of the deposited data

How the results depend on the processing

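Over 5 settings the members called in sig-7(RNAi) embryos were 85.7% to 89.6% (88.4% as reported), those called in control embryos 83.7% to 89.3% (86.0%) and those called in both 77.6% to 81.2% (79.1%). These were without the copy pairs, with the stalk and ubiquitin-fusion genes added, without members that overlap another gene and, chosen after seeing the data, without rsl-24D1 and with the other rpl genes added. The settings share most of their genes, so the narrow ranges show no stability of the calls. Keeping only the 5 members with no adjacent gene of the same call gave 80.0% in sig-7(RNAi) embryos, 40.0% in control embryos and 20.0% in both. By construction that setting removes members in shared stretches. Against all genes of the gene table the background was 13.9% in sig-7(RNAi) embryos, 14.4% in control embryos and 9.52% in both. The share of shared members beside a shared gene was 97.1% with neighbours of any kind too. No paired analysis was possible because each call already combines both libraries. Leaving out replicates, stricter peaks, filters, normalization, a background of equal protein length and motif strands were not run, since the calls and the gene table do not allow them. Gene length could be taken from the gene table, but a background of equal gene length was not run either.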

Other observations

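Of 4 RNA polymerase I subunit genes, which transcribe ribosomal RNA, rpoa-1, rpoa-12 and rpoa-49 were called in both conditions and rpoa-2 in neither. Of 8 growth regulators, mxl-2, raga-1 and the S6 kinase gene rsks-1 were called in both. Only in sig-7(RNAi) embryos was the TOR kinase gene let-363 called. daf-15, which encodes the raptor subunit that works with TOR, and the Myc and Mad relatives mml-1 and mdl-1 were called in control embryos only. rict-1, the gene of the other TOR partner, was called in neither. Over all protein-coding genes 16.8% were called in both, 7.05% in sig-7(RNAi) embryos only, 6.03% in control embryos only and 70.1% in neither. These are single calls of few genes with no replicate values. Neither the difference between the lists nor that between conditions was tested.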
